A study of Mus musculus with 24 samples.

Results

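Lhx6 interneurons were studied here as nuclei chosen by a rule on 11 transcripts and on depth, 661 of the 204925 nuclei that were kept. A nucleus was counted where it held more than 500 and fewer than 7000 detected genes, less than 20% mitochondrial and at least 3000 unique molecular identifiers (UMIs), at least 2 UMIs of Gad1 and Gad2 together and at least 2 UMIs of Lhx6. It could hold at most 3 UMIs of Adarb2, 2 of Rgs9, 1 of Slc17a7 and Slc17a6 together, 2 of Mog, Mag and Mobp together, and 0 of Csf1r. These transcripts chose the nuclei, so their levels in them are descriptions only. At the threshold itself, 403 members held exactly 2 UMIs of Lhx6 and 958 other nuclei met every condition except for holding 1.

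Lhx6 encodes a LIM homeodomain factor that GABAergic neurons born in the medial ganglionic eminence keep into adult life. In the cortex and hippocampus its neurons are mainly of a pair of families, the somatostatin (Sst) cells that contact dendrites and the fast-spiking parvalbumin (Pvalb) cells that contact cell bodies. GABAergic neurons of the pallidum and of the zona incerta with adjoining hypothalamus also express Lhx6, and many of those are projection neurons.

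The 24 libraries of single nuclei (10x Genomics 5′ chemistry) came from 12 mice of the strain B6.Pdgfbtm3Cbet, each with 1 library from the deep brain and 1 from the cortex. The 6 mutants were Pdgfb ret/ret, and their 6 controls were Pdgfb ret/wt. The ret allele lacks the retention motif of PDGF-B, controls carry 1 copy of it, and no mouse with both alleles wild type was included. Deep brain tissue, in which vessels of mutants calcify, held pallidum, thalamus and hypothalamus, midbrain and pons, and cortical tissue held cerebral cortex and hippocampus. The labels give an age of 5 months plus 0 to 18 days for mice 1 to 3 and of 4 months plus 7 to 24 days for mice 4 to 6, in both genotypes. Control 6 is labelled male, and the other 11 mice are labelled female. Members held 9 and 11 UMIs of Pdgfb itself in control and mutant cortex and 11 and 7 in control and mutant deep brain, too few to check a label, and the allele does not remove the transcript.

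Libraries held 23625232 to 96459036 UMIs. In 7 of the 12 cortical libraries the median nucleus held under 1500 UMIs, while the medians of deep brain libraries lay between 3547 and 7314.5. Members held a median of 14222 UMIs in the cortex and 12090.5 in the deep brain, and the limit of 3000 UMIs removed only 2 of the 663 nuclei that met the other conditions. Any pair of libraries shared 8 to 220 barcodes, at most 1.99% of the smaller library. No barcode was a member in more than 1 library, and 137 member barcodes also occurred among the kept nuclei of another library.

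The cortex gave 327 members, 156 from controls and 171 from mutants, and the deep brain gave 334, 195 from controls and 139 from mutants. Controls held 17, 11, 20, 23, 61 and 24 members in the cortex (mice 1 to 6) and 40, 38, 15, 38, 34 and 30 in the deep brain. Mutants held 18, 9, 11, 16, 74 and 43 in the cortex and 19, 26, 18, 28, 39 and 9 in the deep brain. The cortical library of mutant 2 and the deep brain library of mutant 6, with 9 members each, were too small to enter the gene tests, which needed 10. The condition on Adarb2 removed the most nuclei, 67 of 495 in the cortex and 221 of 618 in the deep brain that had met the limits on Gad1, Gad2 and Lhx6.

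**Figure D1:**
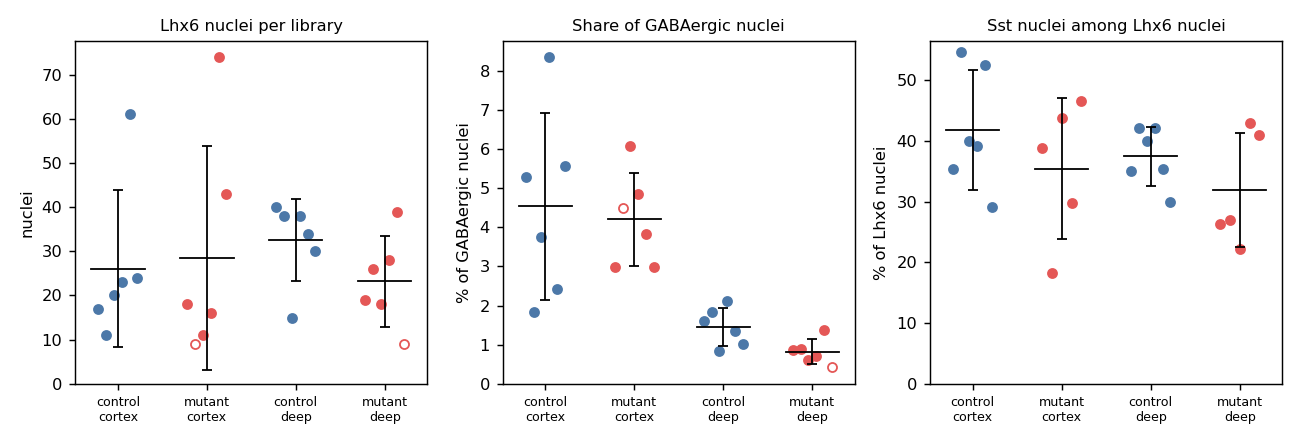
Members per library, their share of GABAergic nuclei and the share of members in the Sst class, with 1 point per library, bars for the mean and whiskers for the SD; deep stands for deep brain, and open circles are the libraries with 9 members, which the Sst panel leaves out. In the deep brain the share of GABAergic nuclei is 0.431 to 1.37% in mutants and 0.835 to 2.12% in controls, and the groups overlap.

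Of the transcripts that name these cells, the rule did not use Sst and Pvalb, and the members bore out the label for Sst, and for Pvalb only in part. Lhx6, which the rule required, stood at 174 CPM (counts scaled to a fixed total of UMIs) over the members of the cortex and 214 CPM over those of the deep brain, beside 0.229 CPM in cortical nuclei with Slc17a7 and no Gad1 or Gad2, which are mostly excitatory neurons. Sst, the peptide that names its family, stood at 1365 CPM in cortical and 1356 CPM in deep brain members, with at least 1 UMI in 57.8% (95% exact interval 52.2 to 63.2%) and 48.5% (43.0 to 54.0%). Sst also gave a UMI in 20.8% of the excitatory nuclei of the cortex (median 13816.5 UMIs, 18.2 CPM) and in 27.0% of its oligodendrocytes (median 4818 UMIs, 56.0 CPM), so a single UMI of Sst is read as background. Pvalb, which encodes a calcium-binding protein, was found in 32.4% of cortical members (27.4 to 37.8%) and 19.5% of deep brain members (15.4 to 24.1%), at 51.5 and 25.4 CPM. In the same excitatory nuclei of the cortex 1.53% held a UMI of Pvalb, and in those of the deep brain 5.01%. Other GABAergic nuclei are not set beside the members here, so these shares do not show Pvalb to be particular to members. These intervals cover counting error only.

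The rule did not reach all Sst neurons. Among the 1559 cortical GABAergic nuclei without a UMI of Lhx6 that met the other conditions, at least 2 UMIs of Sst after thinning to 3000 UMIs were found in 17.6% (15.7 to 19.6%), beside 0.374% of the excitatory nuclei of the cortex. Their level of Sst was 580 CPM, and 38.7% held at least 1 UMI without thinning. Those nuclei had a median of 8928 UMIs and were shallower than the members.

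To class members at equal depth, each was thinned to 3000 UMIs and placed in the Sst class or the Pvalb class where it then held at least 2 UMIs of that transcript and more of it than of the other. The Sst class took 131 cortical and 119 deep brain members, the Pvalb class 9 and 1, and neither class 187 and 214. More members thus fell in neither class than in both together.

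The Sst class and the unclassed members differed in many transcripts besides Sst and Pvalb, which set the classes. Their levels are given as descriptions over the pooled nuclei of all 12 libraries of each region. Counts of libraries are over the 10 of each region with at least 5 nuclei of both. Npy, the neuropeptide Y gene, stood at 868 CPM in the Sst class of the cortex and 65.4 CPM in the unclassed members, and was higher in the Sst class in 10 of 10 libraries. Reln, which encodes the secreted protein reelin, stood at 676 against 110 CPM, also in 10 of 10. The synaptic vesicle gene Synpr (941 against 140 CPM) and the NMDA receptor subunit gene Grin3a (757 against 139 CPM) were higher in all 10 as well. The unclassed members were the higher ones for transcripts of fast-spiking cells. Syt2, a synaptotagmin of fast release, stood at 214 CPM in them and 10.8 CPM in the Sst class, in 10 of 10 libraries. Pvalb, which the definition of the Sst class holds down, stood at 71.5 against 2.69 CPM. Erbb4, the neuregulin receptor, stood at 10535 against 2480 CPM and Kcnc1, a fast potassium channel gene, at 663 against 248 CPM, again in 10 of 10. Acan, which encodes the core protein of perineuronal nets, had 61 UMIs in the unclassed members and 2 in the Sst class.

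In the deep brain the Sst class kept this outline, with Npy at 1038 against 39.3 CPM and Synpr at 717 against 90.4 CPM, both in 10 of 10 libraries. Some of its nuclei also carried transcripts of the sleep-active long-range Sst cells. At least 2 UMIs of Nos1 were held by 28 of the 119 nuclei of the class, 11 of 73 in controls and 17 of 46 in mutants. These nuclei were unevenly spread over mutants. Of all members, 8 of 28 in mutant 4 and 6 of 39 in mutant 5 but 0 of 26 in mutant 2 held as many, and 2 to 4 did in each control. In the deep brain nuclei with Slc17a7 the share was 2.93% in controls and 5.58% in mutants. Nos1, neuronal nitric oxide synthase, stood at 390 CPM in the Sst class and 16.4 CPM in unclassed members, Chodl, which marks those cells, at 66.3 against 1.79 CPM, and Tacr1, the substance P receptor, at 362 against 36.8 CPM. Nos1 was the higher one in the Sst class in 9 of 10 libraries and the others in 10 of 10. In the cortex the same 3 stood at 90.3 against 27.5 CPM, 15.1 against 1.28 CPM and 84.4 against 19.5 CPM. Over pooled nuclei Nos1 went the other way between the genotypes there. At least 2 UMIs of it were held by 12 of 68 control and 3 of 63 mutant nuclei of the Sst class, and by 28 of 156 and 8 of 171 members. By library, mutant 4 lay within the controls, with 3 of 16 members against 7 of 61 in control 5 and 6 of 24 in control 6. The other mutants lay below every control. Mutant 5 alone gave 74 of the 171 members, of which 1 held as many. The difference in these shares was not tested.

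In some deep brain members no transcript of Mef2c was detected. Mef2c, a transcription factor that interneurons of this origin need to mature, gave no UMI in 29 of the 327 cortical members, and in 49 of 195 deep brain members of controls and 64 of 139 of mutants. Oligodendrocyte nuclei also held less Mef2c in the deep brain (means of 168 CPM in controls and 101 CPM in mutants) than in the cortex (434 and 428 CPM). Lhx8, a factor of the pallidal lineage, was found in 7 cortical members, in 23 of the control deep brain and in 34 of the mutant deep brain (11.8 and 24.5%), where 0.0351 and 0.239% of the deep brain nuclei with Slc17a7 and no Gad1 or Gad2 held a UMI of it (median 13182 and 14431 UMIs). Zfhx4, a zinc finger homeobox gene, had at least 2 UMIs in 6 cortical members, 13 of the control and 26 of the mutant deep brain (6.67 and 18.7%). It is no marker of these members, since 15.0 and 13.4% of deep brain oligodendrocyte nuclei and 23.0 and 30.4% of the nuclei with Slc17a7 held as many. Chat, the acetylcholine synthesis gene, was found in 1 control and 3 mutant members of the deep brain, at 0.402 and 11.3 CPM over all of them, beside 2.39 and 3.02 CPM in the nuclei with Slc17a7. Deep brain members without Mef2c had a median of 9990 UMIs in controls and 11743 in mutants, where all deep brain members had medians of 11995 and 12595.

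**Figure D2:**
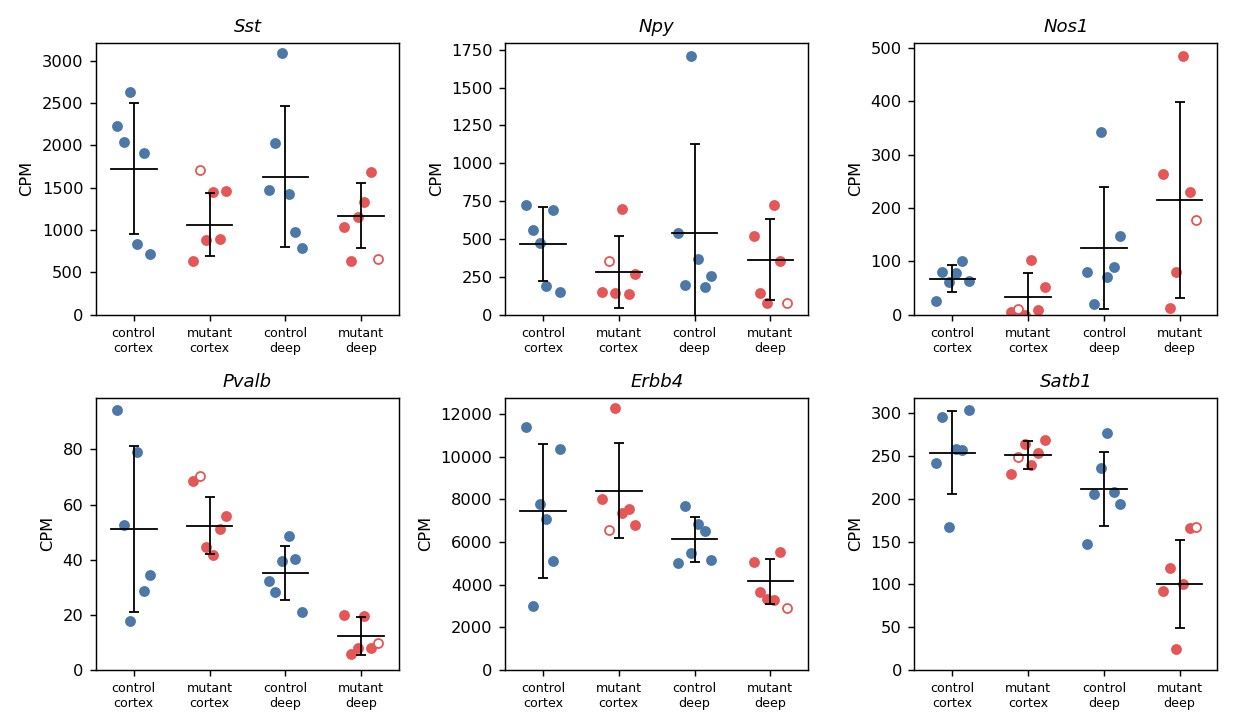
CPM of Sst, Npy, Nos1, Pvalb, Erbb4 and Satb1 in the members of each library, 1 point per library with the mean and SD; deep stands for deep brain, and open circles are libraries with 9 members, left out of the mean. Sst lies between 628 and 3089 CPM in every library, and Pvalb between 5.79 and 20.0 CPM in mutant deep brain and 20.9 and 48.7 CPM in control deep brain.

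The share of members among GABAergic nuclei did not differ beyond the spread between libraries in the cortex, and its mean was lower in the deep brain of mutants, where the difference missed the threshold after adjustment. In the cortex they made up 4.21% ± 1.19 (SD, n = 6) of GABAergic nuclei in mutants and 4.54% ± 2.39 in controls (two-sided exact permutation test, p = 0.777). Deep brain libraries of mutants held 0.866, 0.893, 0.617, 0.709, 1.37 and 0.431% and those of controls 1.62, 1.82, 0.835, 2.12, 1.35 and 1.03%. The means were 0.814% ± 0.320 and 1.46% ± 0.487 (exact permutation p = 0.0260, adjusted 0.208 over 8 shares). Of all nuclei with at least 3000 UMIs, members were 0.303% ± 0.114 in mutant and 0.451% ± 0.133 in control deep brain (exact permutation p = 0.0671, adjusted 0.268). When every GABAergic nucleus was first thinned to 3000 UMIs, the rule found far fewer members. The shares in the deep brain were then 0.202% ± 0.134 in mutants, with 0 in mutant 1, and 0.274% ± 0.177 in controls. The difference was -0.0728 percentage points (exact permutation p = 0.446). With so few members the test cannot tell a lower share from an equal one. The upper limits on other transcripts also exclude fewer nuclei at that depth. The part of depth in the difference was not tested. The tissue itself also differed between the genotypes in the deep brain, where nuclei with Slc17a7 and no Gad1 or Gad2 were 1.95 to 8.62% of the nuclei with at least 3000 UMIs in mutants and 7.33 to 17.4% in controls. The part of this difference in the shares was not tested.

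The Sst class was 35.4% ± 11.6 of members in mutant cortex (n = 5) and 41.8% ± 9.88 in control cortex (n = 6), and 31.9% ± 9.39 and 37.4% ± 4.82 in the deep brain, with exact permutation p of 0.348 and 0.219. Of the Pvalb class there were too few nuclei at 3000 UMIs for a comparison, 1 of 195 in the control deep brain and 0 of 139 in the mutant deep brain. For counting error alone, and at this depth, 0 allows a share of up to 2.16% (3 counts of the total). Before thinning, 10.8% of the same mutant members and 25.6% of the control ones held at least 1 UMI of Pvalb. Without thinning, nuclei with at least 2 UMIs of Pvalb and fewer of Sst made up 5.26, 0, 0, 3.57 and 0% of members in deep brain libraries 1 to 5 of mutants and 12.5, 5.26, 6.67, 21.1, 11.8 and 6.67% in those of controls. The groups met only at the value 5.26%, and the exact permutation p was 0.00649. This p is unadjusted and belongs to an alternative to the main definition. The mutant values rest on very few nuclei, since 5.26 and 3.57% are shares of 19 and 28 members. Median depths per library were 9335.5 to 12855 UMIs in mutants and 10573 to 13150 UMIs in controls.

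In the cortex no gene of the members passed the threshold between the genotypes. edgeR called 0 of 7001 genes (0.0%) with 279 at an unadjusted p below 0.05, and DESeq2 called 0 with 185. The genes with the smallest p were Epha3, an ephrin receptor, at 70.3 CPM ± 16.6 (SD, n = 5) in mutants and 125 CPM ± 14.0 (n = 6) in controls, and Chrm2, the muscarinic M2 receptor, at 92.9 CPM ± 29.8 and 169 CPM ± 33.9. Their log2 fold changes were -0.76 ± 0.17 (SE) and -0.90 ± 0.20, both with an edgeR adjusted p of 0.530. Among those leaning higher in mutants, Agps, an enzyme of ether lipid synthesis, had a log2 fold change of 0.63 ± 0.17 (edgeR adjusted p = 0.860). Nothing was called in any of the gene lists, among them 15 tested genes of interneuron identity, 11 of Sst cells, 13 of Pvalb cells and 7 of stress and hypoxia, whose median log2 changes were -0.01, -0.10, 0.06 and -0.45 beside 0.00 over all genes. The tested cortical libraries held 11 to 74 members.

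In the deep brain 35 of 6960 genes (0.503%) passed the threshold, 24 higher in mutants (0.345%) and 11 lower (0.158%). The count depended on the setting. It was 4 of 2006 after thinning to 3000 UMIs, 13 of 3471 with stricter limits on other cells' transcripts and 0 of 3726 with at least 3 UMIs of Lhx6. Mef2c led the lower ones. It stood at 552, 557, 611, 790, 584 and 675 CPM in controls 1 to 6 and at 256, 226, 157, 294 and 317 CPM in mutants 1 to 5, and at 295 CPM in the 9 nuclei of mutant 6, which did not enter the test. Every mutant lay below every control. At least 1 UMI of Mef2c was found in 54.0% of mutant and 74.9% of control members, and in such sums fewer nuclei with the transcript and less of it per nucleus cannot be told apart. The log2 fold change was -1.29 ± 0.17 (SE), with an edgeR adjusted p of 0.00132. Mef2c had lower means in mutants outside the members too, with ranges that overlapped. In oligodendrocyte nuclei it stood at 46.9 to 212 CPM in mutant and 97.4 to 234 CPM in control deep brain (means 101 and 168), and in the nuclei with Slc17a7 and no Gad1 or Gad2 at 303 to 756 CPM and 483 to 799 CPM (means 442 and 677). The part of this background in the members' difference was not tested. Mef2c lies on chromosome 13 between 83504034 and 83667080 (mm10).

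Hunk, a serine/threonine kinase gene, fell further, from 116 CPM ± 23.4 (SD, n = 6) in controls to 31.2 CPM ± 19.2 (n = 5) in mutants, a log2 change of -1.89 ± 0.26 (edgeR adjusted p = 0.00132). The mutant libraries held 64.0, 20.3, 24.1, 16.2 and 31.1 CPM and the controls 80.8 to 144 CPM, but the 9 nuclei of mutant 6 stood at 128 CPM, within the controls. Runx2, a runt-domain transcription factor, stood at 66.9 CPM ± 32.5 in mutants and 204 CPM ± 57.5 in controls (log2 change -1.51 ± 0.28, edgeR adjusted p = 0.0169). Its groups overlapped, because control 2 held 96.1 CPM and mutant 2 held 104 CPM. Serpini1, the protease inhibitor neuroserpin, was lower by 1.03 ± 0.18 on the log2 scale, Oprd1, the delta opioid receptor, by 1.75 ± 0.33, and the homeobox gene Mkx by 1.08 ± 0.19. Slc30a3, the zinc transporter of glutamatergic vesicles, was lower too (log2 change -1.36 ± 0.30), at 14.5 CPM ± 7.04 against 41.4 CPM ± 9.96. The remaining lower genes were Tmem44, Gabra4, the long noncoding RNA Dleu2 and the translation factor gene Eif5a, with log2 changes between -1.45 and -0.73.

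Ptprd, a receptor tyrosine phosphatase that organizes synapses, was the leading gene among those higher in mutants. It stood at 2365, 3647, 3767, 3664 and 2347 CPM in mutants 1 to 5 and at 1473, 1106, 1479, 1150, 1390 and 1658 CPM in controls. No library overlapped, mutant 6 held 2113 CPM, and the log2 fold change was 1.23 ± 0.17 (edgeR adjusted p = 0.00132). Ptprd lies on chromosome 4 between 75941238 and 78211961 (mm10). Vwc2l, which encodes a secreted von Willebrand factor C domain protein, stood at 182 CPM ± 46.5 (n = 5) against 64.8 CPM ± 17.5 (n = 6), and Srgap1, a GTPase-activating protein of the Slit and Robo pathway, at 162 CPM ± 40.2 against 71.2 CPM ± 3.26. Their log2 changes were 1.49 ± 0.21 and 1.20 ± 0.17 (edgeR adjusted p of 0.00132 and 0.00136). For both genes the 9 nuclei of mutant 6 did not follow. They held 39.3 CPM of Vwc2l, within the controls, and 59.0 CPM of Srgap1, below them.

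Of the others that were higher, Dgkb, a diacylglycerol kinase gene, stood at 664 to 870 CPM in mutants 1 to 5 and 334 to 460 CPM in controls (log2 change 0.95 ± 0.14). Grik4, a kainate receptor subunit, changed by 1.26 ± 0.20, Gabrg1, the gamma 1 subunit of the GABA A receptor, by 1.25 ± 0.23, and Camk2d, a calcium and calmodulin dependent kinase, by 0.92 ± 0.18. Ddah1, which breaks down an inhibitor of nitric oxide synthase, changed by 1.26 ± 0.22. Tshz2, a zinc finger factor, had the largest change of the 12 leading genes, 1.73 ± 0.33, with a wide spread of 146 to 668 CPM in mutants and 19.7 to 149 CPM in controls. The rest of these 12 were Nyap2, Rasgef1b and Dock10, with log2 changes between 1.00 and 1.24. A set of 11 genes, Mef2c, Ptprd, Vwc2l, Hunk, Srgap1, Dgkb, Grik4, Nyap2, Ddah1, Serpini1 and Mkx, was called in all 11 fits that left out 1 of the tested libraries, out of the 23 genes followed in them.

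The deep brain libraries also differed in makeup. When the share of nuclei with Slc17a7 and no Gad1 or Gad2 in each library was added to the model, edgeR called 0 of 6960 genes, with 416 at an unadjusted p below 0.05. In that fit Mef2c had a log2 change of -0.90, Hunk -1.94, Ptprd 0.89, Gabrg1 0.50 and Tshz2 0.79, all with an adjusted p of 0.569 or more. Because that share nearly separates the genotypes, its part and that of the genotype cannot be told apart in this model. Of the tested libraries, those nearest in that share were mutants 4 and 5, at 7.32 and 8.62%, and controls 3 and 6, at 7.33 and 9.04%. Among these 4, Mef2c stood at 294 and 317 CPM against 611 and 675 CPM, and Ptprd at 3664 and 2347 CPM against 1479 and 1658 CPM. Gabrg1 stood at 146 and 79.8 CPM against 78.9 and 65.4 CPM and Tshz2 at 323 and 146 CPM against 19.7 and 118 CPM. Mutant 6, with its 9 members, had a share of 7.84%. It lay with the mutants for Mef2c and Ptprd, within the controls for Hunk and Vwc2l, and below them for Srgap1. Mice 1 to 3 alone gave 13 calls and mice 4 to 6 alone gave 5. The log2 change of Mef2c was -1.37 in mice 1 to 3 and -1.16 in mice 4 to 6, and that of Ptprd 1.32 and 1.11.

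**Figure D3:**
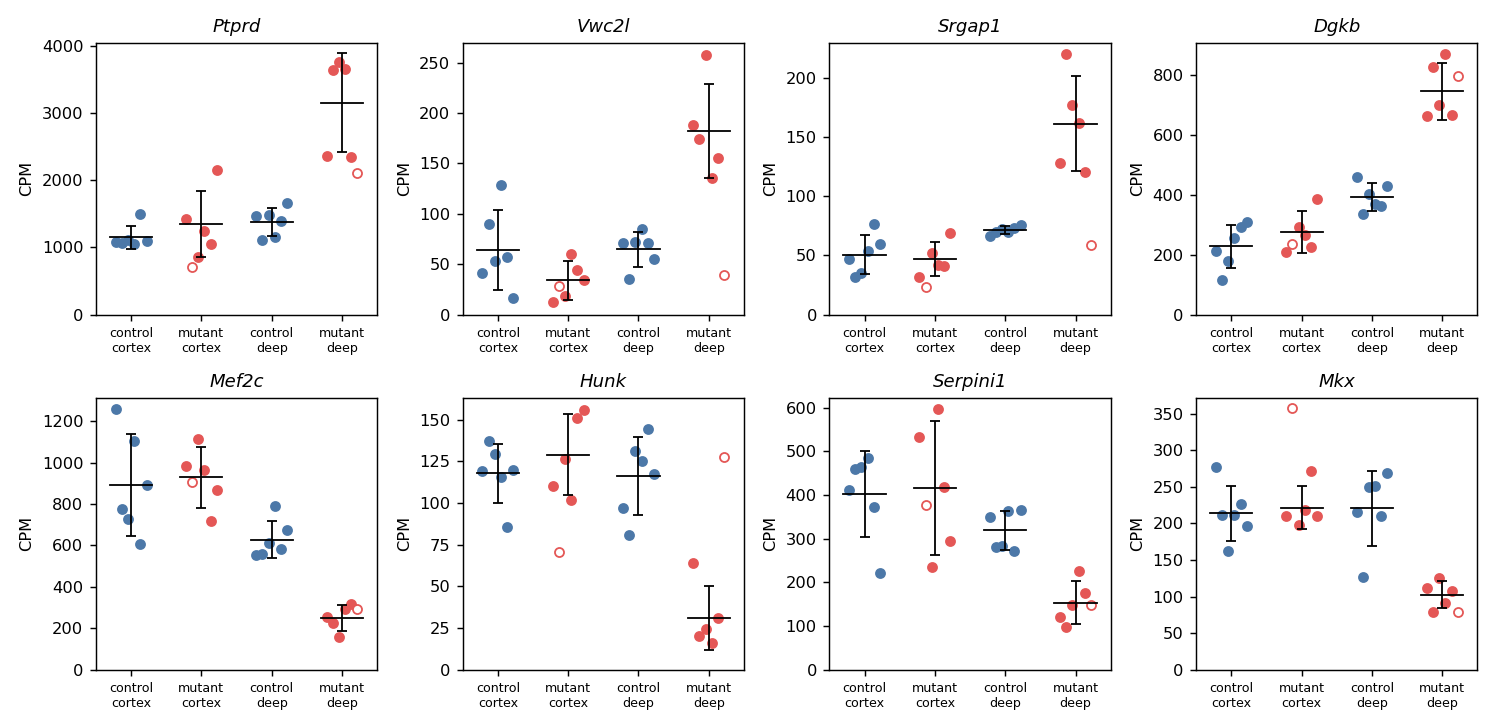
CPM of Ptprd, Vwc2l, Srgap1, Dgkb, Mef2c, Hunk, Serpini1 and Mkx in the members, 1 point per library with the mean and SD; deep stands for deep brain, and open circles are libraries with 9 members, left out of the mean and of the test. Mef2c is 157 to 317 CPM in mutant and 552 to 790 CPM in control deep brain, while in the cortex the genotypes overlap.

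**Figure D4:**
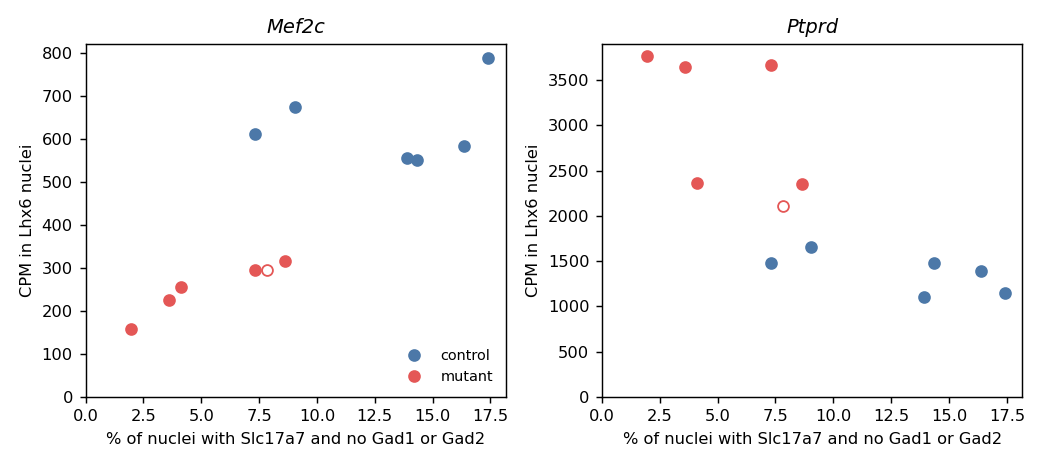
Level of Mef2c and of Ptprd in the deep brain members of each library (CPM, 1 point per library, the open circle being the mutant library with 9 members) against the share of nuclei with Slc17a7 and no Gad1 or Gad2 among the nuclei with at least 3000 UMIs (percent). Shares run from 1.95 to 8.62% in mutants and from 7.33 to 17.4% in controls, and overlap between 7.33 and 8.62%.

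The differences of Mef2c, Ptprd and Hunk had the same direction in both kinds of deep brain members, as a description of pooled nuclei. Mef2c stood at 418 CPM in the Sst class of controls (73 nuclei) and 116 CPM in that of mutants (46 nuclei), and at 760 and 328 CPM in the unclassed members (121 and 93 nuclei). Ptprd went from 1451 to 2354 CPM in the Sst class and from 1282 to 3314 CPM in the unclassed members. Hunk went from 67.2 to 14.8 CPM and from 141 to 44.8 CPM. For Zfhx4 the classes parted, with 11.0 CPM in controls and 11.1 CPM in mutants for the Sst class and 26.7 and 114 CPM for the unclassed members.

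The gene lists of the deep brain comparison held few calls, and their medians lay on both sides of 0. Of 14 tested genes of interneuron identity 1 was called lower, Mef2c, beside 0.158% of all genes, and the median log2 change was -0.32 beside 0.00 over all genes. At an unadjusted p below 0.05, 6 of these 14 were lower and none higher, beside 305 lower and 386 higher of all 6960 genes. Maf, a factor of the same lineage, had a log2 change of -1.02 ± 0.24 and did not pass (edgeR adjusted p = 0.0661). None of 12 genes of Pvalb cells was called, with a median of -0.39, 1 gene of the 12 above 0 and 5 lower at an unadjusted p below 0.05. Pvalb itself stood at 20.0, 5.79, 8.05, 19.4 and 7.78 CPM in mutants 1 to 5 and 20.9 to 48.7 CPM in controls, from 20 and 88 UMIs, and missed the threshold (log2 change -1.56 ± 0.35, edgeR adjusted p = 0.0526). Of the other settings that tested Pvalb, 9 also missed the threshold and 4 passed it. None of 11 genes of Sst cells was called (median -0.28).

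Among 13 GABA receptor genes 1 was called higher, Gabrg1, and 1 lower, Gabra4, which encodes an extrasynaptic alpha subunit, beside 0.345% and 0.158% of all genes. Gabra4 stood at 107 CPM ± 13.1 against 183 CPM ± 27.3. None of 14 glutamate receptor, 8 stress and hypoxia, 4 activity-induced, 4 perineuronal net, 4 pallidal or 2 diencephalic and midbrain genes was called. Their medians were -0.06, -0.10, -0.53, -0.11, 0.68 and 1.39. The glutamate receptor list does not include the kainate receptor gene Grik4, which was called higher. Foxp2, of the pallidal list, stood at 115 CPM ± 168 in mutants and 18.3 CPM ± 10.5 in controls, and Zfhx4 at 96.4 CPM ± 73.1 and 25.8 CPM ± 18.3 (log2 change 2.05 ± 0.46, edgeR adjusted p = 0.0526). No interferon gene was abundant enough to be tested in either region.

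Summed transcripts of pallidal and of diencephalic and midbrain neurons had higher means in deep brain members of mutants. The 12 pallidal genes summed to 152 to 648 CPM in mutants (mean 334) and 101 to 250 CPM in controls (mean 168), and the 16 diencephalic and midbrain factors to 64.2 to 358 CPM (mean 202) and 27.8 to 210 CPM (mean 98.4). In each sum 1 gene made up most of the difference between the means. It was Foxp2 in the first, with 414 CPM in mutant 3 and 7.78 to 55.0 CPM in the other tested mutants, and Zfhx4 in the second, which oligodendrocyte nuclei and nuclei with Slc17a7 also held. The part of these transcripts in the differences between the genotypes was not tested.

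Transcripts of other cells overlapped in range between the genotypes in deep brain members. The rule itself limited Mog, Mag, Mobp, Slc17a7, Rgs9, Adarb2 and Slc17a6, which are among the markers summed here. The sums are therefore in part set by the rule and are descriptions only. The 8 oligodendrocyte markers summed to 220 to 314 CPM in mutants and 172 to 366 CPM in controls. The 6 cortical excitatory markers summed to 205 to 452 CPM and 237 to 446 CPM, with Neurod6 at 0 in both groups. The 6 microglial markers summed to 28.0 to 76.5 CPM and 28.4 to 62.8 CPM, with Csf1r at 0 by the rule. The 6 astrocyte markers summed to 160 to 433 CPM and 179 to 526 CPM, the 6 striatal projection neuron markers to 48.3 to 136 CPM and 40.2 to 101 CPM, and the 8 Adarb2 interneuron markers to 154 to 249 CPM and 142 to 237 CPM. The 6 thalamic markers summed to 556 to 1463 CPM and 481 to 1224 CPM, most of it from Rora, whose means were 971 and 793 CPM. The 6 endothelial and mural markers summed to 4.00 to 12.9 CPM and 4.03 to 19.7 CPM, with Flt1 at 0 in both.

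Whether these differences were particular to members was tested against the GABAergic nuclei of the deep brain libraries that lacked Lhx6. There were 9440 in all, of which the 731 of mutant 6 stayed out of the fit. The difference between genotypes differed between the classes for 26 of 13589 genes (0.191%), 20 of them with the larger value in members (0.147%) and 6 with the smaller one (0.0442%). For Ptprd the difference of differences was 1.25 ± 0.17 on the log2 scale (edgeR adjusted p = 0.000404). In the nuclei without Lhx6 Ptprd stood at 2720 to 2838 CPM in mutants and 2561 to 3192 CPM in controls. The members of controls were below those nuclei. Members of mutants 2, 3 and 4 stood above both ranges, and those of mutants 1 and 5 stood below them. Vwc2l (1.55 ± 0.21), Srgap1 (1.06 ± 0.17), Dgkb (0.76 ± 0.14) and Zfhx4 (2.05 ± 0.38) were called in the same direction, and Hunk (-1.87 ± 0.29), Runx2 (-1.11 ± 0.23) and the calcium release channel gene Itpr1 (-1.63 ± 0.30) in the other. In the nuclei without Lhx6 Zfhx4 stood at 198 to 232 CPM in mutants and 206 to 269 CPM in controls, and the members stood below these ranges in every tested library except that of mutant 3 (221 CPM). Mef2c was not among the 26 (edgeR adjusted p = 0.0533). In the cortex the same test against Adarb2 interneurons (1968 nuclei, the 47 of mutant 2 outside the fit) called 0 of 9944 genes in edgeR (0.0%). There 457 had an unadjusted p below 0.05.

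Of the genes within 10 Mb of Pdgfb on chromosome 15, 107 were tested in the cortex and 104 in the deep brain, and edgeR called 0 in each, with 2 and 8 at an unadjusted p below 0.05. Over all genes 279 of 7001 and 691 of 6960 had such a p, and with 0.0% and 0.503% called, a count of 0 says little about the locus.

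Within controls, few genes were called between cortical and deep brain members. Over 6 mice with the mouse as a block, 2 of 7190 genes (0.0278%) passed the threshold, 1 in each direction (0.0139%). Ghr, the growth hormone receptor, stood at 149, 94.0, 138, 158, 222 and 128 CPM in the deep brain and 15.7, 58.0, 38.2, 21.4, 78.2 and 29.9 CPM in the cortex of mice 1 to 6. It was higher in the deep brain in 6 of 6 mice (log2 change 1.92 ± 0.24, edgeR adjusted p = 0.00803). Cck, the cholecystokinin gene, was lower there in 6 of 6 mice, at 8.74 to 28.2 CPM against 31.3 to 129 CPM (log2 change -1.57 ± 0.24, edgeR adjusted p = 0.0441), but this call was lost in DESeq2, without the block of mice and in all 6 fits that left out 1 mouse, with the direction kept in each. Without control 4 no gene was called. No gene of the lists passed in controls, and the 13 genes of Pvalb cells had a median of -0.33 with none above 0.

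Within mutants the regions stood far apart. Over the 4 mice with enough members in both regions, 324 of 6099 genes (5.31%) passed, 180 higher in the deep brain (2.95%) and 144 lower (2.36%). After thinning to 3000 UMIs 110 of 1000 passed, and with stricter limits on other cells' transcripts 14 of 3412. Zfhx4 rose the most of the leading genes, from 2.44, 3.72, 0 and 1.16 CPM in the cortex of mice 1, 3, 4 and 5 to 84.0, 221, 61.4 and 31.1 CPM in their deep brain (edgeR adjusted p = 2.2e-05), and its fitted log2 change of 5.28 ± 0.43 depends on the prior count because the cortex held so few UMIs. Eda, an ectodysplasin ligand of the TNF family on the X chromosome, went from 5.98 to 12.8 CPM in the cortex to 105 to 158 CPM in the deep brain (3.63 ± 0.29). Tacr1 and Nos1 were higher in the deep brain by 3.68 ± 0.39 and 3.62 ± 0.41. Pooled members of mutant cortex held 28.9 CPM of Nos1, below the 72.2 CPM of control cortex. Also higher were Dpyd, an enzyme of pyrimidine breakdown (3.63 ± 0.33), the phosphodiesterase gene Pde4b (3.17 ± 0.31), the semaphorin co-receptor gene Nrp2 (2.52 ± 0.25) and the glypican gene Gpc3 (3.18 ± 0.33).

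Lower in the mutant deep brain were Gabrd, the delta subunit of extrasynaptic GABA A receptors (-2.61 ± 0.28), Mef2c (-1.89 ± 0.24), Runx2 (-2.31 ± 0.29) and Hunk (-1.94 ± 0.29). The lists followed a pattern here. Of 12 tested genes of Pvalb cells 7 were lower and none higher, beside 2.36% of all genes lower, with a median log2 change of -0.87. They were Pvalb (-1.98 ± 0.36), Erbb4, Syt2 and the potassium channel genes Kcna1, Kcnc1, Kcnc2 and Kcnip2, with changes between -1.28 and -0.86 for the last 6. Of 13 identity genes 5 were lower, among them the transcription factor genes Mef2c, Maf, Satb1 and Zeb2. Bcan and Hapln4, of 3 tested perineuronal net genes, were lower, and of 11 genes of Sst cells Nos1 was higher and Cort and Synpr lower. GABA receptor genes split, with Gabrg1, Gabra2 and Gabrb1 higher and Gabrd, Gabra4 and Gabrg3 lower of 13. Gria3 was the single lower gene of 14 for glutamate receptors and Hsp90aa1 the single higher one of 6 for stress and hypoxia. Grik4, which is not on the glutamate receptor list, was higher (2.25 ± 0.24). Markers of other cells were called as well. Slc4a4, 1 of 2 tested astrocyte genes, and Cux2, 1 of 2 tested cortical excitatory genes, were lower. All 3 tested oligodendrocyte genes leaned higher (median 0.64), with none called.

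Of the 324 genes, 317 were also tested in the control mice, which shared no library with the mutants. There 282 of the 317 (89.0%) had the same sign, against 61.6% of all 6055 genes tested in both, 89 had an unadjusted p below 0.05 and 1 was called. Differences were smaller in controls. The median log2 change of the genes higher in the deep brain was 1.42 in mutants and 0.37 in controls, and that of the lower ones -1.09 and -0.26, and the mutant values are those that chose the genes. For Mef2c the change between the regions was -1.89 in mutants and -0.52 ± 0.16 in controls, for Eda 3.63 and 0.98 ± 0.28, and for Hunk -1.94 and -0.03 ± 0.17. Mef2c was lower in the deep brain outside the members too. Its means in oligodendrocyte nuclei were 428 CPM in cortex and 101 CPM in deep brain of mutants, and 434 and 168 CPM in controls. In the nuclei with Slc17a7 and no Gad1 or Gad2 they were 890 and 442 CPM in mutants and 905 and 677 CPM in controls. The part of this background in the members was not tested.

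**Figure D5:**
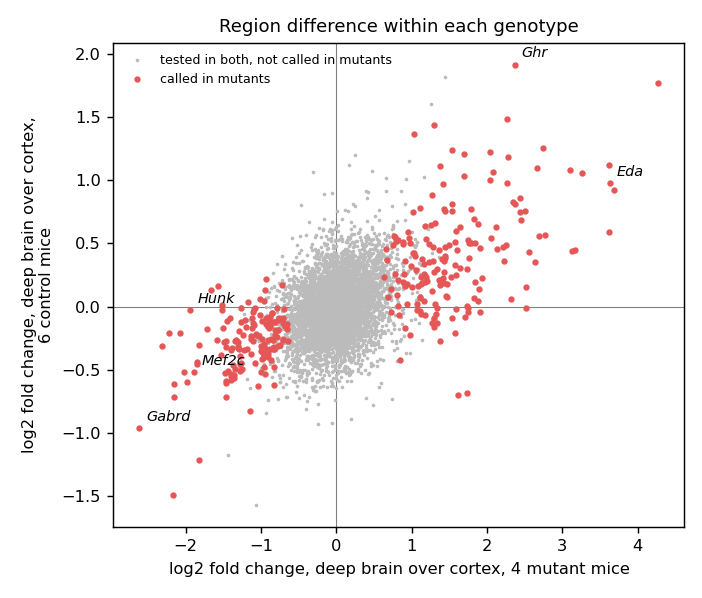
Log2 change of deep brain against cortex in control mice (vertical axis) and in mutant mice (horizontal axis), 1 point per gene tested in both, in red the 317 called in mutants and in grey the others. Of the red points 282 have the same sign in both, and most lie nearer to 0 in controls.

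The test of the difference itself, over the 4 mutant and 6 control mice, called 9 of 8176 genes (0.11%), 8 with a positive term (0.0978%) and 1 with a negative one (0.0122%). The negative term was that of Hunk, -1.92 ± 0.35 (edgeR adjusted p = 0.0477). It stood at 102 to 151 CPM in the cortex of those mutants and 16.2 to 64.0 CPM in their deep brain, while controls held 85.3 to 137 CPM and 80.8 to 144 CPM. Epha3 had the smallest p (1.75 ± 0.28, edgeR adjusted p = 0.0280). Its level in mutants was 51.3, 59.6, 65.7 and 84.8 CPM in the cortex and 256, 302, 191 and 193 CPM in the deep brain, and 104 to 141 CPM and 85.2 to 177 CPM in controls. The others were Ptprt, a receptor tyrosine phosphatase (1.45 ± 0.24), Nell1 (1.64 ± 0.28), Eda (2.66 ± 0.50), Nexmif (1.26 ± 0.24), Arhgap6 (1.78 ± 0.34), Gabra2 (1.78 ± 0.34) and the collagen gene Col25a1 (1.73 ± 0.33). The count went to 0 without control 4, control 5 or mutant 3, and to 36 without control 1. Mef2c and Ptprd were not called.

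At equal depth the share of the Sst class did not differ between the regions beyond the spread between mice. Over 10 mice it was 2.42 percentage points lower in the deep brain and higher there in 4 mice (two-sided exact sign-flip permutation p = 0.445). The Pvalb class, with 9 cortical nuclei and 1 deep brain nucleus, was too small for this test. Only 5 of the 10 mice had a difference, so the smallest p possible was 0.0625, and the difference was -1.77 points (exact permutation p = 0.312). It was -16.8 points without thinning (exact permutation p = 0.00781), where cortical members were also the deeper ones.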

How the data were processed

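The values are UMI counts, which the authors obtained with Cell Ranger 5.0.1 (introns included, mm10) and deposited for each gene and called nucleus, neither normalized nor filtered further. All 24 libraries and 32288 genes were read, and 32235 genes were placed by identifier in GENCODE M21 (GRCm38). Nuclei were chosen by the rule given above, separately in each region. No doublet caller was run, and the limits on transcripts of other cells removed mixed nuclei only in part. Members, gene lists and tests were chosen with earlier results of these data known.

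UMI counts of the members of each library were summed. Libraries with under 10 members left the fits, as did mice that lacked a library in a paired comparison. edgeR 4.0.16 (R 4.3.3) with filterByExpr, TMM factors and the quasi-likelihood test was used, adjusted by Benjamini-Hochberg over all genes tested, threshold 0.05. SE is the log2 fold change divided by the square root of F. CPM are counts scaled to the same total of UMIs in the members of every library. Means and SD of genes are over libraries with at least 10 members. Each library is 1 mouse and region, so p-values measure the spread between mice. For shares the exact permutation test (two-sided) was used, with a smallest possible p of 0.00216 for 6 against 6 libraries. Intervals of shares are Clopper-Pearson intervals at 95%. Named genes are the called ones with the smallest p, up to 12 higher and 12 lower per comparison (where none was called the first 5 each way, some of which are printed), and the genes of the lists. In class comparisons the genes of the rule were left out of the names only. They stayed in the fits, in the counts of genes tested and in the adjustment, and none of them was called. Some genes of the lists are counted but not reported here by name. Scripts used Python 3.11.15 with scipy 1.17.1, pandas 2.3.3, numpy 2.4.6 and matplotlib 3.10.9. The edgeR and DESeq2 fits were tested on simulated counts. For permutation, the scipy function was checked on values with a known answer, but the code that gave the p of the shares was not. Alternatives were DESeq2 1.42.0, RLE factors, no filter, a replicate block, blocks of mice of like age, thinning to 3000 UMIs, median depth as a covariate, at least 3 UMIs of Lhx6, stricter limits on other cells' transcripts, at least 30 members, mice 1 to 3 or 4 to 6 alone and leaving out each library. Settings added after the data had been seen include the Slc17a7 covariate, the fit of all 12 libraries and shares with members and their comparison class as the total. A fit of cortical libraries whose median nucleus held at least 1500 UMIs was also added. It called 0 of 8682 genes between 2 mutants and 3 controls.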

Additional observations from a re-analysis of the deposited data

Results flagged for a closer look

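In groups of 4 to 10 libraries, 135 were examined for a sample that stood apart from the others (Dixon's criterion at 95%), and 10 had one, where chance alone gives about 1 in 20. The Pvalb class was 11.8% of the members of control cortex 1 and 6.67% of those of control deep brain 3. Control deep brain 5 held 30.7 CPM of Gabrg1, and control deep brain 2 held 127 CPM of Mkx, 96.1 CPM of Runx2 and 52.4 CPM of Dleu2, each the lowest of its group. Runx2 was also apart in mutant deep brain 1, at 16.0 CPM, Gabra2 in mutant deep brain 3, at 459 CPM, and Atrnl1 in mutant deep brain 4, at 226 CPM. Hunk in control cortex 5 stood at 85.3 CPM.

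The difference between regions differed between the genotypes for 9 genes in a test of the interaction. The differences of differences were 1.75 for Epha3, 1.45 for Ptprt, 1.64 for Nell1, 2.66 for Eda, 1.26 for Nexmif, 1.78 for Arhgap6, 1.78 for Gabra2, 1.73 for Col25a1 and -1.92 for Hunk on the log2 scale.

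Of the genes whose genotype difference in the deep brain differed between members and GABAergic nuclei without Lhx6, the 12 with the smallest p among those larger in members were Vwc2l (1.55), Ptprd (1.25), Srgap1 (1.06), Mctp2 (2.49), Nyap2 (0.89), Ddah1 (1.23), Dgkb (0.76), Zfhx4 (2.05), Grik4 (1.08), Dock10 (1.05), Rasgef1b (0.99) and Tshz2 (1.50). The 6 with a smaller value were Hunk (-1.87), Itpr1 (-1.63), Slc4a4 (-1.12), Runx2 (-1.11), Dock4 (-0.78) and Sparcl1 (-0.66). Of these 18 genes, 5 kept the call at equal depth and 13 lost it.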

How the results depend on the processing

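The deep brain count of 35 genes between genotypes was 71 with DESeq2, 243 without a filter on low counts, 56 with the replicate block, 24 with mice blocked by like age, 50 with all 12 libraries, 4 after thinning to 3000 UMIs, 13 with stricter limits on other transcripts, 13 in mice 1 to 3, 5 in mice 4 to 6, and 0 with at least 3 UMIs of Lhx6, with at least 30 members per library (1 mutant against 5 controls, the lone mutant assumed to vary like the controls) or with the Slc17a7 share in the model. In the cortex no filter gave 34 and at least 30 members gave 33 (2 mutants against 1 control). For the regions of controls the count of 2 became 98 without a filter, 1 with no replicate block, and 0 thinned or with stricter limits. For those of mutants 324 became 188 with DESeq2, 674 without a filter, 110 thinned and 14 with stricter limits. The interaction of region and genotype gave 1 thinned and 19 with DESeq2 instead of 9, and that of class and genotype in the deep brain 14 thinned instead of 26. Fewer genes passed the filter after thinning. Otherwise the cause was not tested.

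Leaving out 1 library gave 13 (without control 4) to 86 (without mutant 5) calls in the deep brain, 0 to 0 in the cortex, 0 to 1 and 182 to 304 for the regions of controls and mutants, and 0 to 36 for the interaction of region and genotype. Settings were followed for the named genes only, 23 of the 35 called between genotypes in the deep brain, 24 of the 324 for the regions of mutants, both of the regions of controls, and 9 and 18 of the interactions with region and class. Pvalb was followed between genotypes in the deep brain as well. None of these reversed its direction. For the 23, 362 combinations of gene and setting kept the call and 181 lost it.

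The member share of GABAergic nuclei in the cortex turned to +0.370 percentage points when thinned, and that of nuclei with at least 3000 UMIs to 0.0178. Thinned shares rest on few members, with 0 in the cortical libraries of controls 3 and 6. In the cortex both were negative without thinning. In the deep brain the difference in the share of GABAergic nuclei was -0.648 with an exact permutation p of 0.0625 under the replicate block. It was -0.0728 thinned and -0.141 with at least 3 UMIs of Lhx6. The Pvalb difference in the cortex was 5.82 points unthinned and 1.06 with 1 UMI. In the deep brain it was -8.89 and -6.76 (unadjusted exact permutation p of 0.00649 and 0.0325), and between regions -16.8 unthinned. The Sst difference between regions was 0.468 points in mutants alone. Without 1 library, differences of shares ranged from -0.876 to 0.428 (cortex) and -0.774 to -0.516 (deep brain) for members of GABAergic nuclei, -0.391 to -0.158 and -0.190 to -0.114 for members of nuclei with at least 3000 UMIs, -9.13 to -2.05 and -8.30 to -3.14 for Sst, -0.847 to 1.71 and -1.33 to 0 for Pvalb, and -3.95 to -0.784 and -2.71 to -0.660 for Sst and Pvalb between regions.

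Same-numbered mutants and controls had correlations of deviations of 0.003 to 0.252 in the cortex, where all 5 were above 0 but only that of mice 5 was over 0.1, and of -0.092 to 0.077 in the deep brain, so this check did not show that the numbers pair the mice. By the labels mutants and controls 1 to 4 have the same age to the day and mice 5 and 6 match crosswise, with cortical correlations of 0.138 and 0.220 for the crossed pairs. No label names a shared litter.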
